A study of Homo sapiens with 2 samples.

Results

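The genes described are 10 factors that license replication origins and fire them: ORC1, ORC2 and ORC6 of the origin recognition complex, the loading factors CDC6 and CDT1, the CDT1 inhibitor GMNN (geminin), the kinase CDC7 with its activating subunit DBF4, and the helicase assembly factors CDC45 and MCM10. They were taken by symbol from a table of 18141 distinct symbols, and all 10 had 1 row each. The RNA is from asynchronous cultures of U2OS, a long-established cell line from a human osteosarcoma, given aphidicolin, an inhibitor of the replicative DNA polymerases, at 0.3 µM for 18 h. That is the only group, with 2 libraries from polyadenylated RNA, and no untreated library was analysed here, so every value is a level under the drug and not a response to it. Nothing in the labels says that the libraries come from separate cultures, and the spread between them may be technical.

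An origin is made ready in G1, when the origin recognition complex binds DNA and, with CDC6 and CDT1, loads the MCM helicase in an inactive double ring. Geminin binds CDT1 during S and G2 and so keeps an origin from being loaded again in the same cycle. At the start of S phase the CDC7-DBF4 kinase phosphorylates the loaded MCM ring, CDC45 and the GINS complex join it to make the active helicase, and MCM10 helps it begin to unwind. Many of these genes are textbook targets of the E2F transcription factors, which act at the G1/S boundary.

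Letters of the E2F type lay close to the annotated start of 6 of the 10 genes. The search covered the RefSeq promoter windows (build GRCh38.p14), each from 250 bases before an annotated start to 50 after it. It looked on both strands for TTT, then a pair of letters that are each C or G, then CG, then C or G. All 10 genes had a window, 14 in all because CDC45 had 3 starts, and GMNN and CDC7 each had 2. A match was found for CDC45, CDT1, CDC6, MCM10, GMNN and CDC7. A match was held by 7.43% of the 27305 genes with a window, and by 12.7% of the 9469 of them that reached 1 RPKM in both libraries. The stretches below are shown because they place the matches side by side. Each has 30 bases, read 5′ to 3′ on the strand of the gene, with the letters of 1 match in capitals. On the nearer CDC7 stretch the match is on the other strand.
CDC45, chr22:19479884-19479913, plus strand: aggagccgtgaTTTGGCGGgagtcttgacc
CDT1, chr16:88803751-88803780, plus strand: cccgcgggaaaTTTGGCGGgaaccgcgccc
CDC6 upstream match, chr17:40287840-40287869, plus strand: cgaggccgggcTTTGGCGGgaggtgggaac
CDC6 downstream match, chr17:40287875-40287904, plus strand: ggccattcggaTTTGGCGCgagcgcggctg
MCM10, chr10:13161552-13161581, plus strand: ccggttggaatTTTGGCGGgttcagctgtg
GMNN, chr6:24775322-24775351, plus strand: gctgggtcggtTTTGGCGCgctctcacttc
CDC7 farther match, chr1:91501033-91501062, plus strand: gtgcagttcctTTTCCCGCcccccttcgga
CDC7 nearer match, chr1:91501067-91501096, plus strand: tccgacctgcgGCGGGAAAgtcgcgcgcct

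The core was nearly the same in most of them: TTTGGCGG in CDC45, CDT1, MCM10 and the upstream CDC6 match, and TTTGGCGC in GMNN and the downstream CDC6 match. Both CDC7 matches read TTTCCCGC, 1 on each strand. Of the 14 windows 6 held a match, against 6.19% of the windows of all genes. The CDC45 match lies in the window of the third of its starts only, and the GMNN and CDC7 matches in that of the second. The CDC45 match begins 25 bases before that start, the CDT1 match 27 before its start and the upstream CDC6 match 28, and the MCM10 match begins 5 bases after its start. CDT1 holds a second match on the other strand, TTTCCCGC, which ends at the base before the match in capitals. It is in lower case in the stretch above. The whole CDC6 window is printed because it carries 2 E2F-type matches, in capitals, and 3 CCAAT boxes, in lower case.
CDC6 window, chr17:40287629-40287928, plus strand: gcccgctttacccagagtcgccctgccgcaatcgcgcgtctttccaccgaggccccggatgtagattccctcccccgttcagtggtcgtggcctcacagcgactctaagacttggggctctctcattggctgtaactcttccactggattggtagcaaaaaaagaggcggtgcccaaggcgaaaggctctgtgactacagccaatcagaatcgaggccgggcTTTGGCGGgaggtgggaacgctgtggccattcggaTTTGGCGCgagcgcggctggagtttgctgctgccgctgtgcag

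ORC1, ORC2, ORC6 and DBF4 had no E2F-type match, which says only that these letters are not in their windows. Other letters were searched on both strands as well: CCAAT, the core of the box that the factor NF-Y binds, and TTTGAA, the cell cycle homology region found in many genes of late cell cycle phases. CCAAT was found in 7 of the 10 genes (39.7% of all genes in the promoter table), ORC1, ORC2 and ORC6 among them, and TTTGAA in DBF4 alone (18.2% of all genes). In these windows no match of one motif overlapped a match of another. 1 stretch of each of the 4 genes is shown, with CCAAT or, for DBF4, TTTGAA in capitals, read on the gene's strand, so that a match on the other strand appears as ATTGG or TTCAAA.
ORC1, chr1:52404430-52404459, minus strand: cggggccacgccgATTGGcgcgaagttttc
ORC2, chr2:200963711-200963740, minus strand: gactcctcttcctATTGGcttcctcgggca
ORC6, chr16:46689578-46689607, plus strand: cgtcctgtcctaaCCAATccagatgcgccg
DBF4, chr7:87876478-87876507, plus strand: gcgtgacgcgttTTCAAAtcttcaaccgcc

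**Figure D1:**
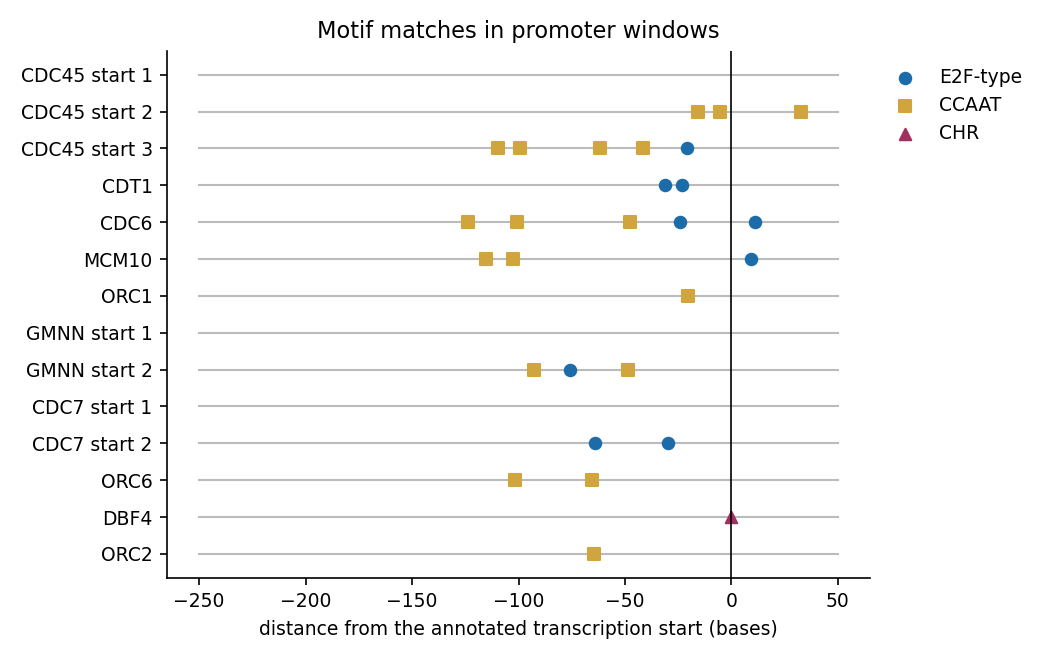
Positions of motif matches in the 14 promoter windows, in bases from the annotated start, with 1 line per window, genes in order of mean level, circles for E2F-type, squares for CCAAT and triangles for TTTGAA (CHR). The E2F-type matches of 6 genes lie between 80 bases before the start and 50 after it, and 7 genes hold CCAAT.

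All 10 genes were well above the level of 1 RPKM (reads divided by exonic length and by library size) used for expression, at 8.99 RPKM or more in the mean of both libraries. That level was reached in both libraries by 66.7% of the 17912 entries of the table. At 10 RPKM in both libraries 9 of the 10 passed, where 27.7% of all entries did, and ORC2 did not. The median of the 10 was 19.7 RPKM, against 3.53 RPKM over all entries. Their means lay between percentiles 69.2 (ORC2) and 94.7 (CDC45) of all entries. The values rest on 622 to 2815 reads per gene and library, recovered from the RPKM, out of 13227805 reads in replicate 1 and 13020149 in replicate 2. Of 6 listed markers of bone and mesenchyme SPARC, VIM, COL1A1, RUNX2 and ALPL passed 1 RPKM, from 2.23 to 279.9, BGLAP was at 0.277 RPKM, and SP7 and IBSP were not listed. Of 6 listed markers of other cell types 3 passed, KRT18 at 42.6 RPKM, SNAP25 at 5.73 and EPCAM at 2.28, 3 were below (PTPRC, PECAM1 and CDH5, the highest at 0.276), and CD3E and ALB were not listed.

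**Figure D2:**
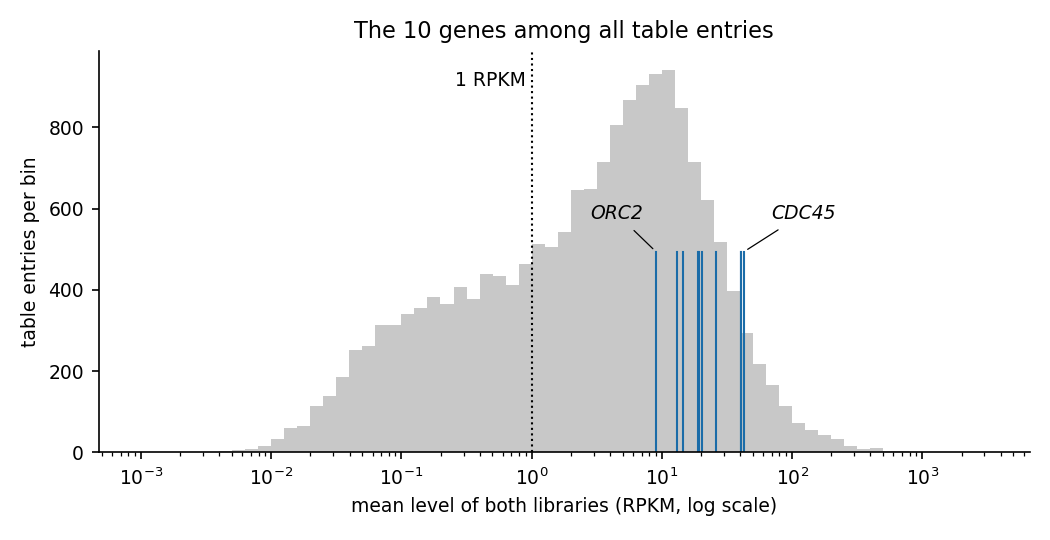
Number of table entries by mean level of both libraries (RPKM, log scale), with a blue line at each of the 10 genes and a dotted line at 1 RPKM. The genes lie in the upper part of the distribution, from ORC2 at 8.99 RPKM to CDC45 at 42.8 RPKM.

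Among the licensing factors, the loaders CDT1 and CDC6 were highest in RPKM and the origin recognition subunit ORC2 was lowest. CDT1, which brings the MCM ring to the origin complex, was at 40.9 RPKM in replicate 1 and 40.5 in replicate 2, or 40.7 ± 0.25 (SD, n = 2, as for all means below). CDC6, the ATPase that recruits CDT1 and the ring, was at 40.1 and 40.6 RPKM, or 40.3 ± 0.38. Each was above the other in 1 library, so they could not be put in order. CDT1 lies on chromosome 16 from 88803213 to 88809258 (GENCODE release 29, GRCh38, as for all gene coordinates here) and CDC6 on chromosome 17 from 40287633 to 40304657, both on the plus strand, and neither shares annotated exonic bases with another gene.

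ORC1, the largest subunit of the complex and in human cells one whose protein is known to rise and fall with the cell cycle, was at 20.3 RPKM in replicate 1 and 20.1 in replicate 2 (20.2 ± 0.12). ORC6, the smallest subunit, was at 14.5 and 14.7 RPKM (14.6 ± 0.13). ORC2, a core subunit, was at 9.06 and 8.92 RPKM (8.99 ± 0.10). The values of these 3 subunits did not overlap between libraries. Set beside the other subunits, which form the core of the complex with ORC2, the order of levels was ORC1, ORC6, ORC3 at 13.7 ± 0.095 RPKM, ORC2, ORC5 at 8.39 ± 0.30 and ORC4 at 5.35 ± 0.036. ORC1 was thus 3.78 times ORC4 in RPKM. Before the division by length the subunits lay closer, from 63.1 CPM (reads divided by library size alone) for ORC1 and 62.8 for ORC6 to 31.2 for ORC5, with ORC2 at 52.4, ORC3 at 50.5 and ORC4 at 47.7. With the longest annotated transcript as the length the order was another: ORC6 at 34.2 RPKM, ORC3 at 20.1, ORC1 at 19.98, ORC5 at 15.3, ORC2 at 12.2 and ORC4 at 7.11. ORC1 lies on chromosome 1 (52372829 to 52404459, minus strand), ORC2 on chromosome 2 (200908973 to 200963680, minus strand) and ORC6 on chromosome 16 (46689643 to 46698394, plus strand). An antisense gene shares 4.39% of the exonic bases of ORC2. The protein-coding genes ACVR2A and MBD5 on the opposite strand share 6.58% of those of ORC4. Whether the counting used strand is not given in the sources used here.

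GMNN, the geminin gene, was at 19.0 RPKM in replicate 1 and 19.3 in replicate 2 (19.2 ± 0.19). In RPKM it was under its target CDT1 in both libraries, a direction that turned with the longest annotated transcript as the length (a ratio of CDT1 to GMNN of 0.923). It is on chromosome 6 from 24774931 to 24786099, plus strand. The ratio of CDT1 to GMNN was 2.15 in replicate 1 (95% interval 1.96 to 2.36) and 2.10 in replicate 2 (1.91 to 2.31). This interval and those below are exact binomial intervals on the reads, which cover counting error only.

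Among the firing factors the helicase component CDC45 was highest in RPKM and the kinase subunit DBF4 lowest. CDC45, part of the active helicase with MCM and GINS, was at 43.0 RPKM in replicate 1 and 42.7 in replicate 2 (42.8 ± 0.17), the highest mean of the 10. MCM10 was at 25.3 and 27.1 RPKM (26.2 ± 1.2), the widest difference between libraries in this set. CDC7, the catalytic subunit of the kinase, was at 18.3 and 19.5 RPKM (18.9 ± 0.84), and its values overlapped those of GMNN. DBF4, an activating subunit of CDC7, was at 13.3 and 12.7 RPKM (13.01 ± 0.41), under CDC7 in both libraries. CDC45 lies on chromosome 22 (19479459 to 19520612), MCM10 on chromosome 10 (13161554 to 13211104), CDC7 on chromosome 1 (91500893 to 91525764) and DBF4 on chromosome 7 (87876216 to 87909541), all on the plus strand. Of the 10 genes only DBF4 has an annotated pseudogene that carries its name, DBF4P1, which is not listed, and reads of such a copy could be split from or added to it.

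**Figure D3:**
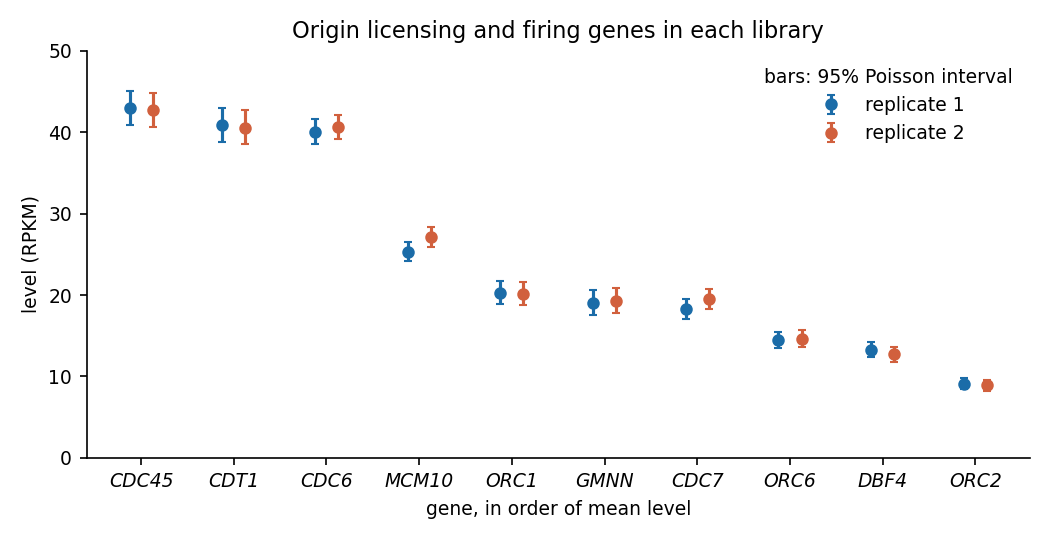
Level of each gene in replicate 1 (blue) and replicate 2 (orange), in RPKM from 0, with 95% Poisson intervals of the recovered reads as bars. CDC45, CDT1 and CDC6 stand near 40 RPKM, MCM10 follows, and ORC2 is lowest at 9.06 and 8.92.

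The order of mean levels was CDC45, CDT1, CDC6, MCM10, ORC1, GMNN, CDC7, ORC6, DBF4 and ORC2, with CDC45 4.76 times ORC2. Of the 45 pairs of genes, 43 had values that did not overlap between libraries. The exceptions were CDT1 with CDC6 and GMNN with CDC7. The share among pairs of other genes was not computed, so this count only describes the 45 pairs. The 45 pairs were not tested: with 2 libraries a gene an exact 2-sided permutation test cannot give a p below 0.33. Counting error blurs more of them: of the 9 neighbours in the order, 7 did not overlap in their values, and only 4 were also apart by their 95% Poisson intervals in both libraries. Those 4 steps were CDC6 to MCM10, MCM10 to ORC1, CDC7 to ORC6 and DBF4 to ORC2. In the deposited RPKM CDC45, CDT1 and CDC6 thus form a top group whose neighbours were not resolved by counting, and ORC1, GMNN and CDC7 a middle one. The groups depend on the length: with the longest annotated transcript GMNN stood between CDC6 and CDT1. In CPM the order began with CDC6, MCM10 and CDC45, and GMNN was last.

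No licensing or firing gene was called different between the libraries. An exact binomial test of the recovered reads (2-sided, Benjamini-Hochberg adjustment over 17169 genes) called 0 of the 10 and 185 genes in all (1.08%). It sets 1 library against the other, not 1 condition against another. At an unadjusted p under 0.05 it called 1 of the 10, where 9.41% of all genes passed. That gene was MCM10: replicate 1 held 1827 of its reads and replicate 2 held 1923. Its log2 fold from replicate 1 to replicate 2 was 0.10 ± 0.047 (SE from counting alone), and its adjusted exact binomial p was 0.42. The log2 ratios of the 10 ran from -0.06 for DBF4 to 0.10 for MCM10, 5 of them below 0 and 5 above. The SD was 0.974% of the mean in the median over the 10, against 2.56% over the 4649 entries between 9 and 45 RPKM. Those entries were matched on RPKM and not on reads, and the difference was not tested.

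For 3 of the 7 pairs of partner genes the higher partner depended on the length that divides the reads. DBF4 was at 0.727 of CDC7 in replicate 1 (95% interval 0.659 to 0.801) and 0.653 in replicate 2 (0.592 to 0.720). ORC1 was 2.24 and 2.26 times ORC2, ORC6 was 1.597 and 1.64 times ORC2, and ORC1 was 1.40 and 1.37 times ORC6. The 95% intervals of these 3 ratios, which hold the length fixed, excluded 1 in each library. In CPM ORC1 over ORC6 was 1.01, so for that pair the exclusion rests on the length. CDC6 was 1.97 and 2.02 times ORC1, the subunit it resembles in sequence, and CDC45 was 1.70 and 1.58 times MCM10. For CDC45 over MCM10 the intervals were 1.59 to 1.81 and 1.48 to 1.69. The exonic lengths implied by the RPKM were 2978 bases for CDC45 and 5454 for MCM10, so in CPM, with no division, the ratio was 0.894 and MCM10 was the higher.

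The exonic length counts every annotated exon of a gene, and for some of the 10 genes it far exceeds any single transcript. GMNN has 2476 bases of exon in the RPKM and 1262 in its longest annotated transcript, and ORC6 has 4309 and 1833. With the longest transcript as the length, CDT1 over GMNN was 0.923 in place of 2.13 and ORC1 over ORC6 was 0.584 in place of 1.39, each on the other side of 1. DBF4 under CDC7, ORC1 over ORC2, ORC6 over ORC2 and CDC6 over ORC1 kept their side of 1 with every length tried. Which transcripts these cells make was not measured.

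**Figure D4:**
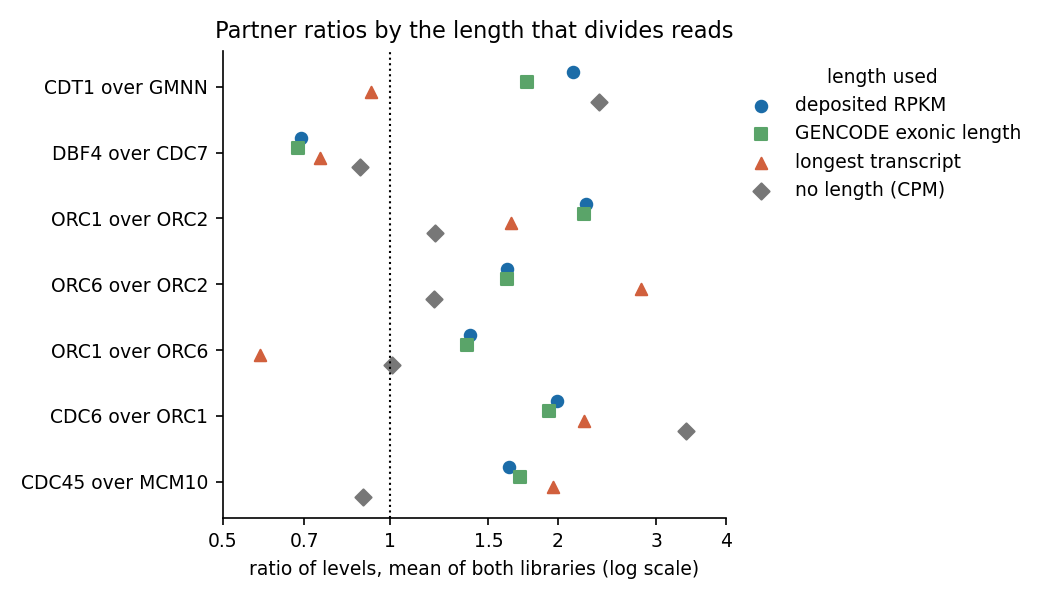
Ratio of levels for 7 pairs of partner genes (log scale, mean of both libraries) with the reads divided by the length in the deposited RPKM, by the GENCODE exonic length, by the longest annotated transcript, or by no length. CDT1 over GMNN, ORC1 over ORC6 and CDC45 over MCM10 lie on both sides of 1, and the other 4 pairs stay on 1 side.

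The 6 genes with an E2F-type match in the stretches shown above had a median of 33.3 RPKM, from 18.9 (CDC7) to 42.8 (CDC45), and the 4 without had a median of 13.8 RPKM, from 8.99 (ORC2) to 20.2 (ORC1). The groups overlapped, since ORC1 lay above GMNN and CDC7. In CPM the medians were 120.0 and 61.3, and GMNN, which holds a match, was the lowest of the 10 at 47.4. Over all 13486 listed genes with a window, the median was 6.39 RPKM for the 1490 with a match and 4.02 RPKM for the 11996 without, with quartiles of 1.83 and 15.4 against 0.587 and 12.4. These are descriptions, and no effect of the motif was tested.

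4 of the 10 genes start within 1000 bases of a protein-coding gene that reads the other way. The share of all genes with such a neighbour was not computed, so this count only describes the 10. ORC1 starts 105 bases from the splicing factor gene PRPF38A (13.4 ± 0.15 RPKM), ORC6 125 bases from the retromer gene VPS35 (20.1 ± 0.43) and CDC45 244 bases from UFD1 (24.6 ± 0.12), a cofactor of the unfoldase that takes the helicase off DNA. The first exons of DBF4 and the mitochondrial carrier gene SLC25A40 (7.88 ± 0.46 RPKM) overlap, and 3.10% of the exonic bases of DBF4 are shared with it.

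The rest of the licensing pathway was expressed as well, and the 10 genes lay inside its range in RPKM. Over all entries 66.7% reached 1 RPKM and 27.7% reached 10 RPKM in both libraries, with a median of 3.53 RPKM. All 16 genes of a list of other origin and loading factors passed 1 RPKM, with a median of 12.1 RPKM. The list is broad and also holds BAHD1, MCM8 and MCM9, so its count and median do not cover loading factors alone. Of the 16 genes, 9 were at 10 RPKM or more in both libraries. The highest were the MCM ring subunits MCM3 at 102.9 ± 1.3 RPKM, MCM7 at 79.2 ± 2.4 and MCM4 at 62.3 ± 0.57. The lowest were ORC4, at the value given above, and MCM9, a helicase relative with roles in repair, at 1.12 ± 0.0082. MCM6 was at 47.4 ± 1.4 RPKM, MCM2 at 34.6 ± 0.66 and MCM5 at 27.7 ± 0.65. Other genes share 23.6% of the exonic bases of MCM2 and 8.94% of those of MCM7.

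All 26 listed genes of a list of other firing factors passed, against 66.7% of all entries. Their median was 20.5 RPKM, close to the 19.7 RPKM of the 10 genes. POLA2, which had more than 1 row, was not used. PPP1CA, a catalytic subunit of the phosphatase that with RIF1 opposes CDC7, was highest at 80.3 ± 1.9 RPKM, and 26.9% of its exonic bases are shared with other genes. The S phase cyclin genes CCNA2 at 71.7 ± 0.026 and CCNE1 at 70.5 ± 1.4 RPKM followed. Another gene shares 9.08% of the exonic bases of CCNA2. MTBP, a partner of the CDC45 loading factor TICRR, at 6.18 ± 0.42 RPKM and the polymerase epsilon subunit gene POLE4 at 5.74 ± 0.90 were lowest. GINS subunits, which join the ring with CDC45, ran from GINS2 at 26.3 ± 0.90 to GINS3 at 9.06 ± 0.94 RPKM. An antisense gene shares 10.9% of the exonic bases of GINS3. DBF4B, the gene for the other activator of CDC7, was at 11.4 ± 0.84 RPKM beside 13.01 for DBF4, with 10.8 and 12.04 in the libraries. It held more reads than DBF4, 1025 and 1120 against 808 and 761, so the order of these activators turns without the division by length.

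Among 22 genes of a list of regulators of licensing, all listed, 21 passed, against 66.7% of all entries, with a median of 21.9 RPKM. The list holds the ubiquitin ligases that remove CDT1, CDK inhibitors and relatives of geminin. It also holds the activators CDC20 and FZR1 of the anaphase-promoting complex and its inhibitor FBXO5, but no core subunit of that complex. PCNA, on which the CUL4 ligase acts on CDT1, was highest at 216 ± 5.3 RPKM, then CDC20 at 98.1 ± 1.7 and the CDK inhibitor gene CDKN1A at 78.6 ± 0.47. DTL and SKP2, substrate receptors of the CUL4 and SCF ligases that act on CDT1 among other proteins, were at 24.4 ± 0.011 and 34.4 ± 0.53 RPKM. GMNC, a geminin relative of multiciliated cells, was the exception below 1 RPKM, with 2 reads in each library. Its relative MCIDAS was at 6.08 ± 0.35 RPKM on 164 and 175 reads, and FBXO31, a ligase subunit that also acts on CDT1, was at 5.03 ± 0.053. Other genes share 16.1% of the exonic bases of FBXO31.

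All 15 genes of the E2F network passed 1 RPKM, against 66.7% of all entries, with a median of 11.05 RPKM. MYBL2, which acts with the MuvB complex on late cell cycle genes, was highest at 243.5 ± 3.6 RPKM, then the E2F partner TFDP1 at 53.8 ± 0.97 and the activator E2F1 at 40.4 ± 3.0. E2F6 at 5.83 ± 0.067 and E2F5 at 2.05 ± 0.17 were lowest, and 18.6% of the exonic bases of E2F5 are shared with another gene. Of the 79 listed genes in these 4 lists the adjusted exact binomial test called 0 between the libraries, against 1.08% of all genes tested. At an unadjusted p under 0.05 it called 14 of the 79, 8 of them among the 26 firing factors, against 9.41% of all genes. The test reaches a small p more easily where a gene holds more reads. The share among genes with as many reads was not computed, so these counts only describe the lists.

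By mean log2(RPKM + 1) over the 2 libraries, the gene of the 4 lists nearest to each of the 10 was PPP1CC for CDC45, E2F1 for CDT1 and CDC6, MCMBP for MCM10, WDHD1 for ORC1 and GMNN, and E2F7 for CDC7. A GINS subunit was nearest to each of the other 3: GINS1 at 14.9 ± 0.12 RPKM to ORC6, GINS4 at 12.7 ± 0.58 to DBF4 and GINS3 to ORC2. Antisense genes share 23.6% of the exonic bases of GINS4. Likeness here means a similar level in 1 condition and nothing more.

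**Figure D5:**
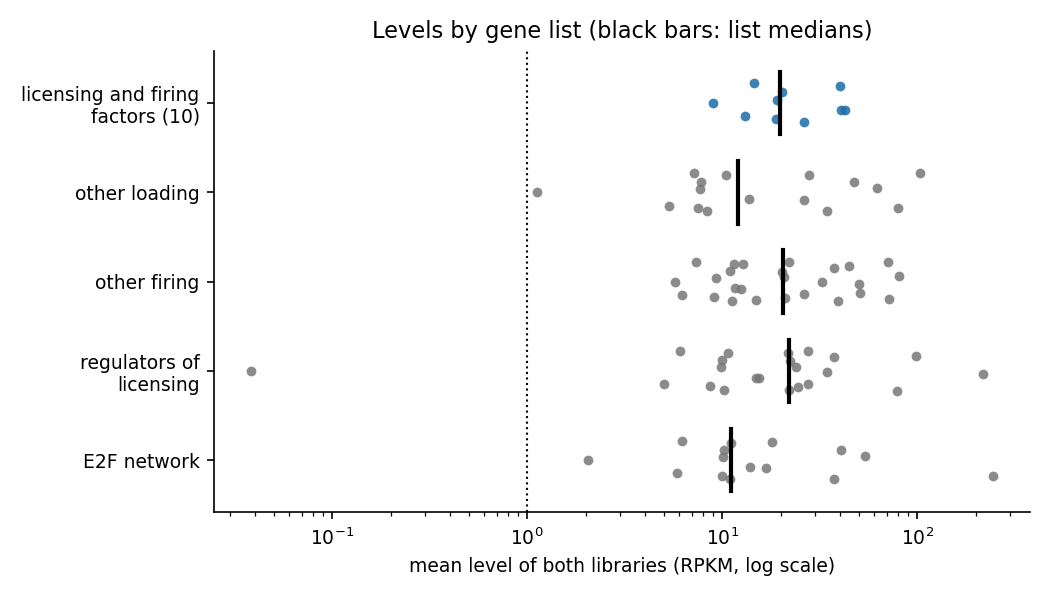
Mean level of both libraries (RPKM, log scale) for the 10 genes (blue) and for the listed genes of 4 pathway lists (grey), with black bars at list medians and a dotted line at 1 RPKM. The 10 genes lie between 8.99 and 42.8 RPKM, inside the range of each other list, and GMNC is the gene to the left of the dotted line.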

How the data were processed

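The deposited values are RPKM from the authors, 1 column per library, per the file headers. The tools named are Trim Galore, HISAT2 and featureCounts, and the builds hg38 and GRCh38.p13, per the submitters' processing notes. Their versions, the annotation, strand use and filters were not given in the sources used here. A set of 58 symbols with several rows (194 rows) was left out, and symbols sharing both values were taken once, which left 17912 entries.

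Reads were recovered from the RPKM: replicate 1 over replicate 2 came out as a fraction of whole numbers for 100% of genes (relative tolerance 2e-13), and the library totals followed from 1019 genes with the same number of reads in each. The whole factor per gene was set by the exonic length in GENCODE release 29, with RefSeq synonyms used where symbols differ. It could be set for 17278 genes, and recovered reads came to 97.8% of the total of replicate 1 and 97.9% of replicate 2. Reads and implied lengths thus rest on that annotation. The library test was scaled by the trimmed mean of M values (0.995 for replicate 2), with genes called at an adjusted p under 0.05. Recovery and test were checked on simulated data with GENCODE lengths and counting error alone. That check could not cover lengths that differ from GENCODE, such as CDT1 with 2760 implied bases and 3336 in GENCODE. Nor could it cover spread between libraries beyond counting error.

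The genes, lists and motifs were chosen with earlier results of these data known. The text names all 10, the 3 highest and 2 lowest of each list, genes not listed or below 1 RPKM, and the nearest gene in level. Other ORC, MCM and GINS subunits, DBF4B, DTL, SKP2 and promoter neighbours were named after their values were seen. A marker of the cell type lists is not reported here. Alternatives covered the level, each library alone, the length, the scaling, the threshold and the motif. Python 3.11.15, numpy 2.4.6, scipy 1.17.1, pandas 2.3.3 and matplotlib 3.10.9 were used.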

Additional observations from a re-analysis of the deposited data

How the results depend on the processing

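The 10 genes all passed 0.5 RPKM, 5 RPKM, 1 CPM and 1 TPM (RPKM rescaled to a fixed sum) and passed in each library alone, and the counts of the 4 lists stayed within 1.5 times. The median level of the 10 (19.7 RPKM) was 19.7 to 19.8 without either replicate, 19.6 with the GENCODE exonic length, 32.7 with the longest transcript, 65.5 in CPM and 91.9 in TPM, the last 2 being other units. Between 6 and 10 genes kept their place in the order without either replicate, 4 with the longest transcript and 0 in CPM. CDT1 over GMNN (2.13) was 1.76 with the GENCODE length, 0.923 with the longest transcript and 2.37 in CPM. With the longest transcript and in CPM, DBF4 over CDC7 (0.690) was 0.747 and 0.881, ORC1 over ORC2 (2.25) was 1.64 and 1.20, ORC6 over ORC2 (1.62) was 2.82 and 1.20, ORC1 over ORC6 (1.39) was 0.584 and 1.01, CDC6 over ORC1 (1.996) was 2.23 and 3.40, and CDC45 over MCM10 (1.64) was 1.96 and 0.894. With the GENCODE length ORC1 over ORC2 was 2.22 and CDC6 over ORC1 was 1.93. These changes follow from the lengths by construction. Of the 185 genes called between libraries, 114 passed 0.01 and 17 had a fold of 1.5 or more, which are stricter limits by construction, and none of the 10 was called under any setting. The 6 genes with an E2F-type match numbered 4 when the motif had to end in CGC, against 3.99% of all genes with a window. They numbered 6 in the window from 100 bases before the start, against 4.02% of all genes with a window. No paired analysis was possible because there is 1 group. Depth limits the order of neighbours, as given above, and GMNC with 2 reads in each library.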
